A study of Mus musculus with 6 samples.

Results

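The 69 clustered histone genes measured here encode the H1 linker histone and the 4 core histones H2A, H2B, H3 and H4. They were taken from the 54884 entries of the deposited table by name, as every entry that starts with Hist1h, Hist2h, Hist3h or Hist4h, and 1 entry whose name ends in -ps was left out. By class there were 6 H1, 20 H2A, 18 H2B, 12 H3 and 13 H4 genes. By cluster there were 56 Hist1, 10 Hist2, 2 Hist3 and 1 Hist4 genes, which RefSeq places on mouse chromosomes 13, 3, 11 and 6 in that order of clusters (GRCm38, with 68 of the 69 matched to 1 gene). All of the H1 genes lie in Hist1. Hist1h2aj and Hist1h2al match the rule although GENCODE M21, a mouse gene annotation, lists them as pseudogenes.

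Histones package DNA into nucleosomes, with the 4 core histones forming the protein spool and H1 binding the linker DNA between spools. Most genes in these clusters are switched on in S phase, and their mRNAs end in a conserved stem-loop that is bound by the protein SLBP instead of in a poly(A) tail. Selection with oligo-dT therefore captures these mRNAs poorly, apart from the polyadenylated forms that some of the genes also make.

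The cells were C57BL/6 mouse hippocampal neural stem cells from embryonic day 14, cultured for 3 to 8 passages, and each group had 3 libraries. In the first group a lentivirus carried an siRNA against circHIPK2, a circular RNA of the Hipk2 gene, and in the control group the lentivirus carried the siRNA circCon. Both groups therefore shared the strain, stage, culture and viral transduction. RNA was extracted with TRIzol and selected for poly(A), so the histone values below are those of a poly(A)-selected library. The table is keyed by gene symbol and holds no entry matched to the circular RNA, so the knockdown was not checked here. The labels do not say that the libraries came from separate cultures, so each p-value reflects the scatter of these libraries alone, part or all of which may be technical. In bulk RNA, fewer cells in S phase and less histone mRNA per cell cannot be told apart.

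Values are FPKM, fragments per kilobase of transcript scaled to the mapped total, as deposited. The libraries held an inferred 18460000 to 21900000 fragments each, from the smallest increments of the values, a range of 1.19 times. There, 1 fragment of a 500 nt transcript, about the length of a histone mRNA, is worth 0.0913 to 0.108 FPKM. Of the 12 neural stem cell markers, 11 had a mean of at least 1 FPKM. The highest, Fabp7, averaged 755 ± 148 FPKM in siRNA libraries and 1206 ± 307 FPKM in control libraries (SD, n = 3 each; adjusted p 0.211). The highest markers of other neural cells were Map2 of neurons, at 89.0 ± 4.47 FPKM in siRNA libraries and 109 ± 5.12 FPKM in control libraries, Gfap of astrocytes, at 186 ± 91.6 FPKM in siRNA libraries and 109 ± 62.1 FPKM in control libraries, and Cnp of oligodendrocytes, at 32.5 ± 7.65 FPKM in siRNA libraries and 40.6 ± 3.11 FPKM in control libraries. None of these 3 lists had a called member, and 1 marker does not stand for its list. Relative to the median fold change of all entries, 3 tested astrocyte markers lay above and 3 below. For oligodendrocytes 2 lay above and 4 below, and for stem cells 7 lay above and 4, with Fabp7, below. Only 4 of the 8 neuron markers were tested, all 4 below that median, and others such as Rbfox3 averaged under 1 FPKM. The endothelial marker Kdr averaged 0.0934 FPKM in siRNA libraries and 0.141 FPKM in control libraries, and the macrophage marker Csf1r averaged 0.424 FPKM in siRNA libraries and 0.378 FPKM in control libraries. The microglia and blood markers Itgam, Cx3cr1 and Ptprc were listed at 0 in all libraries. Libraries differed in ways other than the histone genes. A set of 9 ribosomal RNA entries (the locus itself and entries that move with it) took 11.5%, 3.24% and 19.9% of all FPKM in siRNA libraries 1 to 3, against 0.580%, 0.426% and 0.321% in control libraries 1 to 3. Of these, 8 were called higher (AY036118, CT010467.1, Gm23935, Lars2, Gm24270, Gm26917, Gm15564 and Gm24187). Entries were listed in part for rising with the locus, with earlier results of these data known, so this count is not an independent result. Of 11 liver markers, all 10 that were tested were called lower (Alb, Apoa2, Apoa1, Fabp1, Ttr, Serpina1b, Serpina1c, Serpina1a, Apoc1 and Ahsg), and the list summed to between 2.12 and 2.23 FPKM in siRNA libraries and between 39.9 and 64.9 FPKM in control libraries. All of these but Apoa2 passed the filter only through the control libraries, and this list too was chosen with earlier results known. The part of the ribosomal RNA entries or the liver markers in the histone values was not tested.

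The stem-loop was searched for in the GENCODE M21 transcripts (GRCm38, transcript strand) as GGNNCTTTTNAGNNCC, in which the first and last 6 bases pair. It was found for 44 of the 69 genes (63.8%), against 89 of 55341 gene names in the whole annotation (0.161%). Searching found 6 forms, and the lines that follow show them because they differ between the classes. The stem-loop is in capitals with 5 bases on each side. The form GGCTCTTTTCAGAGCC was held by 26 genes of H1, H2A, H2B and H3, including Hist1h1c, Hist3h2ba and Hist2h2aa1. The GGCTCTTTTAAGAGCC form, shown for Hist1h3c, was held by 6 genes of H1, H2B and H3, and Hist2h2ac alone held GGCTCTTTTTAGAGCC.
Hist1h1c: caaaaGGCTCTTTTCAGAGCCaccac
Hist3h2ba: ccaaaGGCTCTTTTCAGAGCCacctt
Hist2h2aa1: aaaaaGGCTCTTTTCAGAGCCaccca
Hist1h3c: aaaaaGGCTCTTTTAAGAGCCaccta
Hist2h2ac: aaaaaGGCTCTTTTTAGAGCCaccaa

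The other 3 forms were held only by H4 genes among the 69. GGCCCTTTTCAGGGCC was in 7 H4 genes, shown for Hist1h4n, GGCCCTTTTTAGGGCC was in Hist1h4i and Hist2h4, and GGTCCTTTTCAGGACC was in Hist1h4b and Hist1h4j.
Hist1h4n: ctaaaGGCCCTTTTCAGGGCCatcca
Hist1h4i: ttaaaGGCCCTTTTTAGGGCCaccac
Hist1h4b: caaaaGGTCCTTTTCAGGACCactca

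Most of these genes were weakly measured. Of the 69, 10 had a mean of at least 1 FPKM over the 6 libraries and 59 were below it, of which 51 were under 0.5 FPKM. The median of the 69 means was 0.347 FPKM. Of the 69, 3 were listed at 0 in every library (Hist1h1t, Hist1h2aa and Hist1h2al), 54 were above 0 in every library and 12 were at 0 in some. Hist1h1t and Hist1h2aa are known as testis histones. Hist1h2ba, another testis histone, had 0.0121 FPKM in control library 1 and 0 in the other libraries. In fragment equivalents, the gene with the most was Hist1h2bc with about 404 per library, and the median gene below 1 FPKM had 3.32. Of the 414 gene-by-library values, 44 were at 0 and 33 lay above 0 but under 1 fragment, which is not a whole fragment count.

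The better measured genes more often had a long annotated end, with many exceptions. Among the 10 genes of at least 1 FPKM, 8 had a stem-loop and in 6 of them the longest annotated transcript ran more than 100 nt past it, with a median of 249.5 nt among those that had a stem-loop. Among the 59 weaker genes, 36 had a stem-loop, 16 ran more than 100 nt past it, and the median was 54 nt. The poly(A) signal letters AATAAA or ATTAAA, searched on the transcript strand in the last 45 nt, were found in 6 of the 10 (60%), in 11 of the 59 (18.6%) and in 50.3% of all protein-coding transcripts. Transcripts of Hist3h2a ran 1643 nt past the stem-loop and those of Hist2h3c1 ran 1167 nt. Hist1h1c and Hist1h4i ran 840 nt and 330 nt past it. Hist1h2bc, the highest of all, had no stem-loop in its annotated transcripts. These are the letters of an annotation, and which ends the cells used was not tested. The longest annotated transcript had a median of 941.5 nt in the 10 genes and 508 nt in the 59. Several weak genes without a stem-loop had only a short annotated transcript, such as Hist1h2bn and Hist1h2bl at 381 nt and Hist1h4k at 312 nt. How far incomplete annotated ends enter the stem-loop and poly(A) signal counts was not tested.

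**Figure D1:**
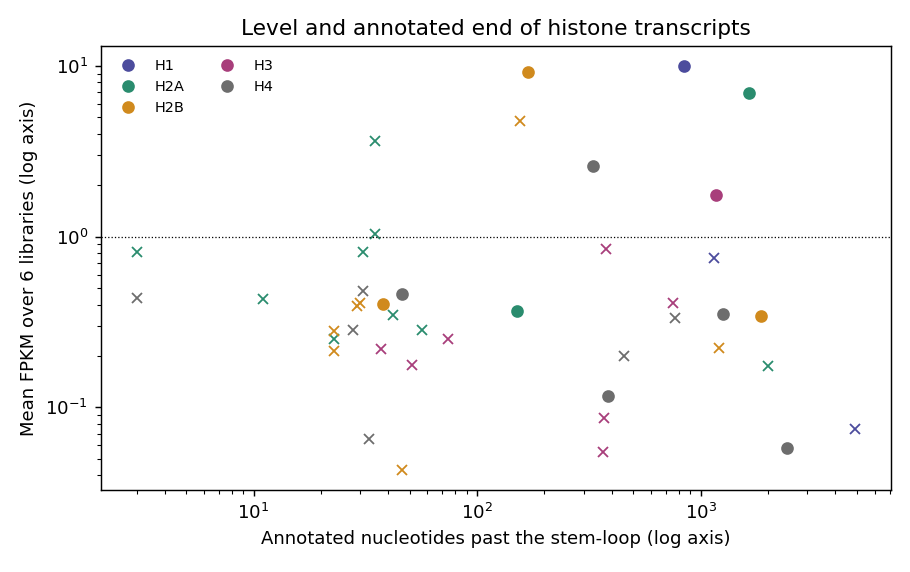
Mean FPKM over all 6 libraries (log axis) against the distance in nt from the stem-loop to the end of the longest annotated transcript (log axis), for the 43 genes with a stem-loop and a mean above 0; circles mark genes with AATAAA or ATTAAA in the last 45 nt and crosses mark genes with neither, colours mark the class and the dotted line is 1 FPKM. Hist1h1c, at 9.97 FPKM and 840 nt, is the highest point.

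The only H1 gene tested, Hist1h1c, did not pass the test. Every siRNA library lay above every control library for 4 of the 6 H1 genes. The same held for 2.65% of all entries of at least 1 FPKM and 8.25% of those of 0.05 to 1 FPKM. Hist1h1c, which encodes a widely expressed linker histone, had 12.0, 10.7 and 12.0 FPKM in siRNA libraries 1 to 3, against 7.68, 9.13 and 8.30 FPKM in control libraries 1 to 3. All the siRNA libraries lay above all the control libraries. The mean was 11.6 ± 0.754 FPKM in siRNA libraries and 8.37 ± 0.730 FPKM in control libraries (SD, n = 3 each), a ratio of 1.38. The log2 fold change, on the log2(FPKM + 1) scale that all fold changes here use, was 0.43 ± 0.10 (SE), and limma's adjusted p of 0.153 did not pass the threshold of 0.05.

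Among the weak H1 genes the means were higher in the siRNA group in the 4 that were detected. Hist1h1e had 0.793, 0.527 and 1.90 FPKM in siRNA libraries, against 0.427, 0.432 and 0.396 FPKM in control libraries. Hist1h1b had 0.254, 0.387 and 0.468 FPKM in siRNA libraries, against 0.0732, 0.174 and 0.0319 FPKM in control libraries. Both encode replicative linker histones, and for both the groups did not overlap, nor did they for Hist1h1d, at 0.0921, 0.0536 and 0.239 FPKM in siRNA libraries, against 0.0146, 0.0292 and 0.0205 FPKM in control libraries. Hist1h1a overlapped, at 0.222, 0.0645 and 0.270 FPKM in siRNA libraries, against 0, 0 and 0.173 FPKM in control libraries. The 5 weak H1 genes summed to 1.36, 1.03 and 2.87 FPKM in siRNA libraries, against 0.514, 0.635 and 0.622 FPKM in control libraries, a ratio of 2.97 that was 2.03 without siRNA library 3. The share of 50-base stretches found in another of the 69 histone genes was 8.54% for Hist1h1c and 32.0% for Hist1h1e. It was 2.21% for Hist1h1d and 0% for Hist1h1b and Hist1h1a. Here and below, only the 69 genes were searched for shared stretches, so a low share does not show that reads map to 1 place.

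The promoters of Hist1h1c and Hist1h1e are shown because these 2 H1 genes had the highest levels of the class, both with higher siRNA means. RefSeq gives them on GRCm38.p6 at chr13:23738557-23738856 (+) and chr13:23622509-23622808 (-), 300 bases each. Capitals mark 4 motifs searched on both strands, which were the CCAAT box with the letters CCAAT, the TATA box with TATAAA, the H1 box with AAACACA and the octamer with ATTTGCAT. Each sequence holds the H1 box and the CCAAT box.
Hist1h1c: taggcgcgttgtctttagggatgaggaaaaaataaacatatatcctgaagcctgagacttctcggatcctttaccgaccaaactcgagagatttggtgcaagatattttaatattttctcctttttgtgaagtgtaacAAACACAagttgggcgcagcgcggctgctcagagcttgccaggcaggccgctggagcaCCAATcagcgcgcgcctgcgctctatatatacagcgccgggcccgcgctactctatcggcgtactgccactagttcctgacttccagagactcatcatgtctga
Hist1h1e: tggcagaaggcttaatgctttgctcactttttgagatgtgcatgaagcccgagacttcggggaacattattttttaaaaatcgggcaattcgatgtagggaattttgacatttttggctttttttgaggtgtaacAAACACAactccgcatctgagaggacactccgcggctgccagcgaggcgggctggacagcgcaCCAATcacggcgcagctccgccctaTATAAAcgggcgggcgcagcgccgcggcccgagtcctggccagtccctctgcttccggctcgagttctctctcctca

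Of the 61 histone genes with a RefSeq promoter, 9 (14.8%) held AAACACA, among them 5 of the 6 H1 promoters, against 7.18% of all 32851 promoters of that length. CCAAT was in 52 (85.2%; 37.4% of all promoters), including every H1, H2A, H2B and H3 promoter and 3 of 12 H4 promoters. TATAAA was in 35 (57.4%; 13.6% of all promoters). ATTTGCAT, the octamer known for H2B promoters, was in 14 (23.0%; 1.74% of all promoters), 7 each in H2A and H2B. Some H2A and H2B windows overlap on opposite strands, so the same letters can be counted for both genes. Among those with the octamer these were Hist1h2aa and Hist1h2ba, Hist1h2ae and Hist1h2bg, and Hist1h2ah and Hist1h2bk. No motif overlapped another. A match is the presence of the letters and no more.

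None of the 3 H2A genes tested passed, and 1 of them had groups that did not overlap, with siRNA higher (2.65% of all entries of at least 1 FPKM). Hist3h2a, at the head of the class, had 6.78, 7.60 and 6.42 FPKM in siRNA libraries, against 6.62, 7.04 and 7.03 FPKM in control libraries, with a log2 fold change of 0.00 and an adjusted p of 0.987. Hist2h2aa1 had 3.72, 4.24 and 5.18 FPKM in siRNA libraries, against 2.21, 3.63 and 2.69 FPKM in control libraries, with no overlap. The mean was 4.38 ± 0.740 FPKM in siRNA libraries and 2.84 ± 0.721 FPKM in control libraries (SD, n = 3 each). On the log2 scale it stood 0.49 ± 0.16 (SE) higher, with an adjusted p of 0.209 that did not pass. Its copy Hist2h2aa2, just above the 1 FPKM filter at a mean of 1.04, had 0.808, 1.09 and 2.22 FPKM in siRNA libraries, against 0.605, 0.407 and 1.09 FPKM in control libraries (adjusted p 0.343). The 2 genes share sequence almost throughout: 89.2% of the 50-base stretches of Hist2h2aa1 and 100% of those of Hist2h2aa2 occur in another histone gene, so how reads were divided between them is uncertain.

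The H2B class held the most FPKM, and none of the 4 H2B genes tested passed. Hist1h2bc, the highest histone gene and rank 3930 of all entries, had 18.7, 17.0 and 13.8 FPKM in siRNA libraries, against 16.0, 21.9 and 15.1 FPKM in control libraries, which overlapped (log2 fold change -0.09, adjusted p 0.791). Hist3h2ba, which encodes an H2B of the Hist3 cluster, had 6.96, 9.60 and 4.64 FPKM in siRNA libraries, against 11.7, 11.8 and 10.6 FPKM in control libraries, all below. The siRNA libraries also lay entirely below for 22.1% of all entries of at least 1 FPKM. The mean of Hist3h2ba was 7.07 ± 2.48 FPKM in siRNA libraries and 11.4 ± 0.649 FPKM in control libraries (SD, n = 3 each), a ratio of 0.620. The log2 fold change was -0.67 ± 0.20 (SE), with an adjusted p of 0.195. Hist3h2ba shares no 50-base stretch with another of the 69 histone genes, and other sequences were not searched. Hist1h2bg had 4.05, 3.83 and 4.39 FPKM in siRNA libraries, against 5.04, 7.14 and 4.15 FPKM in control libraries, and Hist2h2be had 1.39, 1.64 and 1.73 FPKM in siRNA libraries, against 1.76, 1.78 and 1.03 FPKM in control libraries. Both overlapped, with adjusted p of 0.346 and 0.881.

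Hist3h2ba and Hist3h2a are neighbours on chromosome 11, and their promoters are shown for that reason, at chr11:58948661-58948960 (+) and chr11:58954435-58954734 (+). The ratio of Hist3h2ba to Hist3h2a in the same library was 1.03, 1.26 and 0.723 in siRNA libraries, against 1.77, 1.67 and 1.51 in control libraries. The groups did not overlap, but Hist3h2a differed little, so this mostly repeats the Hist3h2ba values. Ratios were also computed for Hist1h1c over Hist1h2bc and Hist2h2aa1 over Hist2h3c1, both entirely higher in siRNA libraries. Hist1h2bg over Hist1h2bc overlapped. No share over other gene pairs was computed. TATAAA is in the Hist3h2ba sequence and ATTTGCAT, on the other strand, in that of Hist3h2a.
Hist3h2ba: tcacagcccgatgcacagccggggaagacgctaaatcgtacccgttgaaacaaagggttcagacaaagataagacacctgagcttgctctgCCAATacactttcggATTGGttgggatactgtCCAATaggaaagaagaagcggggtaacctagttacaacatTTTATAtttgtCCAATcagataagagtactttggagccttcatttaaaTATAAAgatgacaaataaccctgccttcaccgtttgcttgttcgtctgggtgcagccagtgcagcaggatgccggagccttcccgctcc
Hist3h2a: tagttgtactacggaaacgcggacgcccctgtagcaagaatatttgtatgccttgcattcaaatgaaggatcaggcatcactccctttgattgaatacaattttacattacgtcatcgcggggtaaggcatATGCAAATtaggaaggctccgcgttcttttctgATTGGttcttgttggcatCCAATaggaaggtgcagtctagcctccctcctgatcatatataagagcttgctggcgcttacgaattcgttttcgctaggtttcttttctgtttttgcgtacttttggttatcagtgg

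Among the H3 and H4 genes the levels of at least 1 FPKM did not separate. Hist2h3c1 had 2.00, 1.83 and 1.82 FPKM in siRNA libraries, against 1.38, 2.03 and 1.48 FPKM in control libraries (adjusted p 0.565). Hist1h4i had 1.75, 2.59 and 2.73 FPKM in siRNA libraries, against 3.01, 2.60 and 2.83 FPKM in control libraries (adjusted p 0.468). Hist1h4k, just below the filter at a mean of 0.920, had 0.934, 0.204 and 1.74 FPKM in siRNA libraries, against 0.916, 0.917 and 0.811 FPKM in control libraries. Hist1h4b was listed at 0 in all control libraries and had 0.386, 0.0401 and 1.27 FPKM in siRNA libraries. In fragment equivalents these siRNA values were 2.83, 0.334 and 10.1, and 54.6% of its 50-base stretches occur in another of the 69 histone genes. Hist4h4, the sole member of its cluster, had 0.102, 0.0319 and 0.101 FPKM in siRNA libraries, against 0.0283, 0.0716 and 0.0119 FPKM in control libraries.

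**Figure D2:**
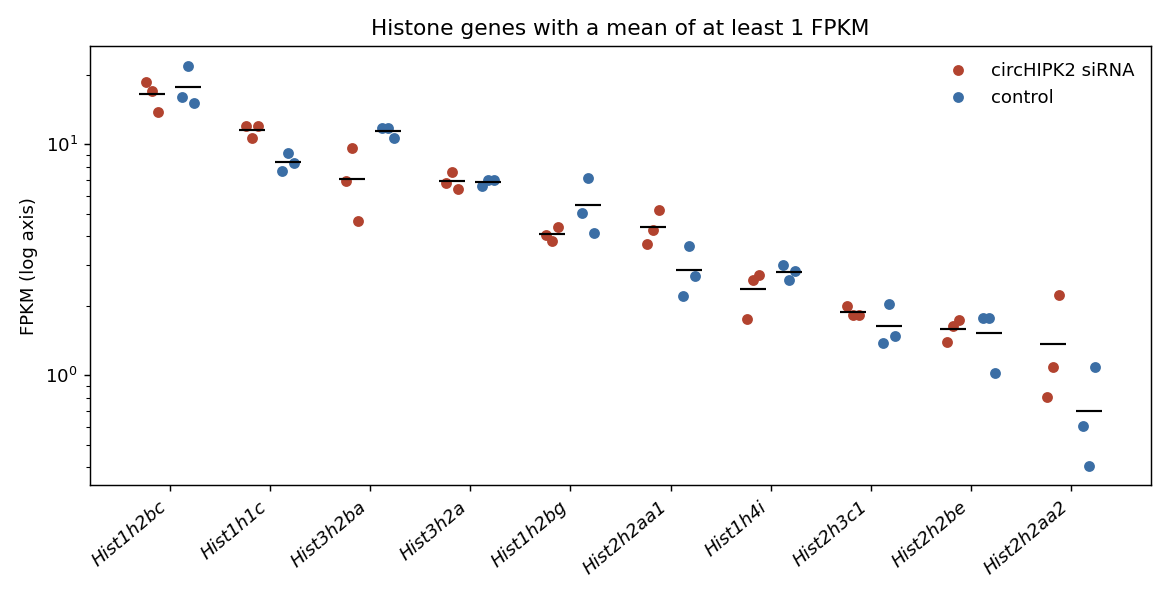
FPKM of the 10 histone genes with a mean of at least 1, one point per library (log axis), with siRNA libraries left of control libraries and bars at the group means. Hist1h1c and Hist2h2aa1 have all siRNA points above the control points, and Hist3h2ba has them all below.

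Of the 10 genes tested, limma called 0 higher (0.117% of the 13702 entries tested) and 0 lower (0.139%). At an unadjusted p below 0.05, 2 were higher (1.83% of all entries) and 1 was lower (15.5%), namely Hist1h1c, Hist2h2aa1 and Hist3h2ba. No other tool was run. The median log2 fold change of the 10 was 0.03, against -0.12 for all entries tested, and the 6 positive and 4 negative values ran from -0.67 to 0.49. Hist2h2aa2, among the positive values, passed the filter only through siRNA library 3, without which 9 histone genes were tested.

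Without a filter, the siRNA libraries lay entirely above the control libraries for 13 of the 69 genes and entirely below for 3. For the 10 genes of at least 1 FPKM these were 2 above and 1 below, against 2.65% and 22.1% of all entries of that level. For the 54 genes between 0.05 and 1 FPKM they were 11 above (20.4%) and 2 below (3.70%), against 8.25% and 7.8% of entries of that level. The weak genes share sequence, with a median of 52.3% of their 50-base stretches found in another histone gene, so they are not independent. By class, 4 of 6 H1, 3 of 20 H2A, 3 of 18 H2B, 2 of 12 H3 and 1 of 13 H4 genes lay entirely above. With the ribosomal RNA entries removed and the columns rescaled, 15 histone genes lay above and 2 below, beside backgrounds of 14.1% above and 4.29% below for entries of at least 1 FPKM and 12% and 4.93% for entries of 0.05 to 1 FPKM. Median-of-ratios scaling also gave 15 above and 2 below, beside 8.93% and 11.4% at 1 FPKM or more and 10.3% and 6.05% at 0.05 to 1 FPKM.

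The weak core histone genes whose groups did not overlap were named after their values were seen. Among H2A genes, Hist1h2ab had 1.01, 0.485 and 0.414 FPKM in siRNA libraries, against 0.148, 0.374 and 0.164 FPKM in control libraries. Hist1h2ad had 0.464, 0.543 and 0.400 FPKM in siRNA libraries, against 0.215, 0.224 and 0.232 FPKM in control libraries. The H2A gene Hist1h2ao went the other way, at 0.550, 0.747 and 0.731 FPKM in siRNA libraries, against 1.12, 0.802 and 0.938 FPKM in control libraries. Of its 50-base stretches 93.5% occur in another histone gene, against 58.0% for Hist1h2ab and 67.1% for Hist1h2ad, so all 3 values depend on how shared reads were divided.

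Among H2B genes, Hist2h2bb had 0.344, 0.252 and 0.451 FPKM in siRNA libraries, against 0, 0 and 0.123 FPKM in control libraries. It shares no 50-base stretch with another of the 69 histone genes. Hist1h2bp had 0.618, 0.422 and 0.486 FPKM in siRNA libraries, against 0.191, 0.382 and 0.315 FPKM in control libraries. Hist1h2bl, with 82.8% of its stretches shared, had 0.549, 0.266 and 0.837 FPKM in siRNA libraries, against 0.130, 0.170 and 0 FPKM in control libraries. Hist1h2bf lay below, at 0.267, 0.380 and 0.306 FPKM in siRNA libraries, against 0.456, 0.542 and 0.396 FPKM in control libraries. Among H3 genes, Hist1h3d had 0.703, 0.575 and 0.497 FPKM in siRNA libraries, against 0.240, 0.307 and 0.137 FPKM in control libraries. Hist1h3b had 0.246, 0.173 and 0.239 FPKM in siRNA libraries, against 0.131, 0.132 and 0.149 FPKM in control libraries, a gap of well under 1 fragment's worth. Of the weak genes by class, the 14 H2B genes summed to 5.60, 5.66 and 5.65 FPKM in siRNA libraries, against 4.38, 4.26 and 3.81 FPKM in control libraries. The 11 weak H3 genes summed to 3.85, 3.76 and 3.61 FPKM in siRNA libraries, against 2.90, 3.32 and 2.14 FPKM in control libraries. Both sums lay entirely above, while those of the 17 weak H2A and 12 weak H4 genes overlapped.

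**Figure D3:**
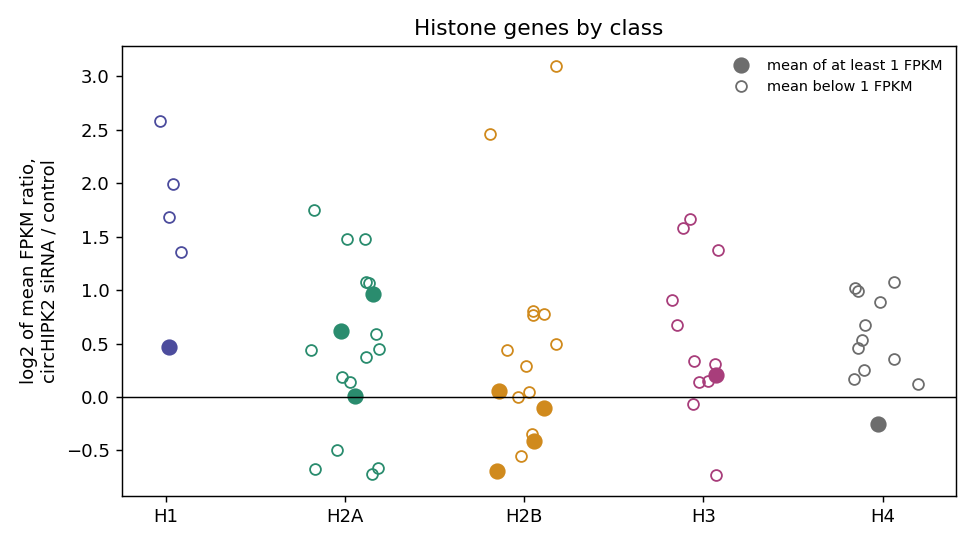
Log2 of the ratio of mean FPKM, siRNA over control, for the 63 genes above 0 in both groups, by class, one point per gene, filled for a mean of at least 1 FPKM and open below it. All 5 detected H1 genes sit above 0, and 50 of the 63 points do.

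The siRNA mean was higher in 51 of the 69 genes and lower in 15. Among the 56 genes above 0 but below 1 FPKM it was higher in 45 (80.4%). The same held for 54.4% of the 17958 entries above 0 but below 1 FPKM. The 2 sets are not matched in level within that range. Only 8332 of the 17958 entries were at 0.05 FPKM or more, as were 54 of the 56 histone genes. The 59 genes below 1 FPKM summed to 21.1, 18.7 and 26.7 FPKM in siRNA libraries, against 17.7, 17.0 and 12.9 FPKM in control libraries, a ratio of 1.40. The ratio was 1.26 without siRNA library 3, 1.54 with median-of-ratios scaling and 1.64 with the ribosomal RNA entries removed. Those entries took a larger share of the siRNA libraries, so removing them and rescaling raises every siRNA value relative to control. For all entries below 1 FPKM the ratio was 1.02 as deposited and 1.02 without siRNA library 3. It was not computed for the other scalings. The library with the highest sum, siRNA library 3, also had the highest share of ribosomal RNA entries. A list of 11 RNAs made without a poly(A) tail, added after seeing the data, summed to 61.6, 60.7 and 107 FPKM in siRNA libraries, against 68.0, 56.4 and 32.1 FPKM in control libraries, which overlapped. The highest of them, Rn7s2, averaged 23.0 ± 6.95 FPKM in siRNA libraries and 14.8 ± 5.68 FPKM in control libraries (adjusted p 0.302). Whether such RNAs bear on the histone sums was not tested.

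**Figure D4:**
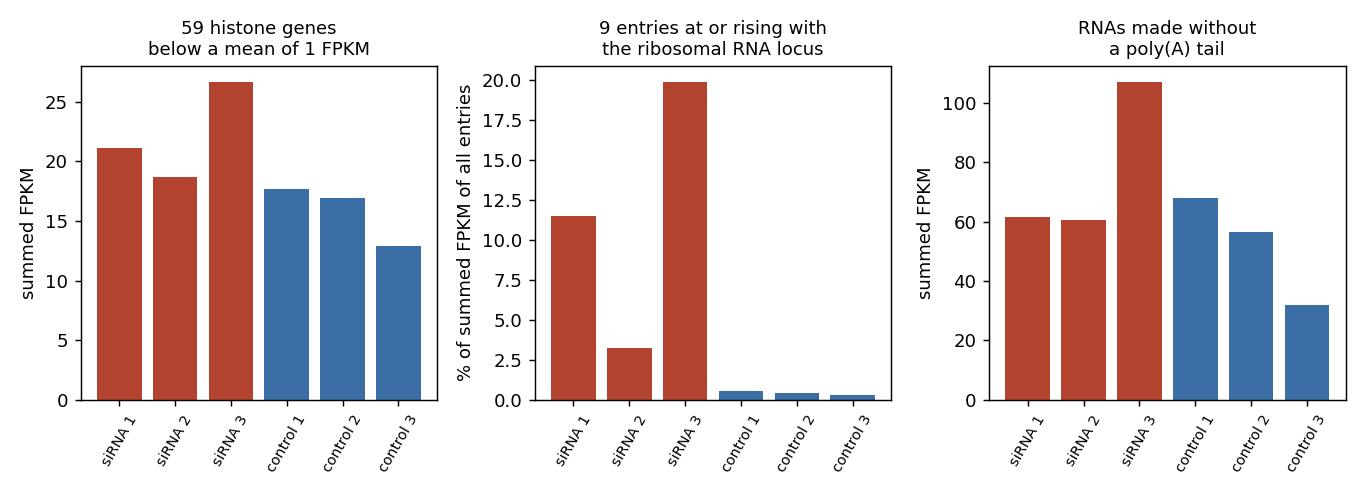
Summed FPKM of the 59 histone genes below 1 FPKM, percent of FPKM in the 9 ribosomal RNA entries and summed FPKM of 11 RNAs made without a poly(A) tail, by library, siRNA left of control. siRNA library 3 is highest in all 3 panels, with 26.7 FPKM, 19.9% and 107 FPKM.

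Summed over all 69 genes, the groups overlapped at 79.3, 78.8 and 81.6 FPKM in siRNA libraries, against 73.8, 84.4 and 67.3 FPKM in control libraries. The H1 genes summed to 13.3, 11.7 and 14.9 FPKM in siRNA libraries, against 8.19, 9.77 and 8.92 FPKM in control libraries. Most of this was Hist1h1c, at 11.6 FPKM of a mean H1 sum of 13.3 FPKM in siRNA libraries. In control libraries it held 8.37 FPKM of 8.96 FPKM. The shares of H1, H2B and H3 did not overlap between groups. H1 genes took 16.8%, 14.9% and 18.3% of the histone FPKM in siRNA libraries, against 11.1%, 11.6% and 13.3% in control libraries, with no overlap. H2B genes took 46.3%, 47.9% and 37.0% in siRNA libraries, against 52.8%, 55.5% and 51.7% in control libraries, all lower, although the 14 weak H2B genes summed higher. H3 genes took 7.38%, 7.09% and 6.66% in siRNA libraries, against 5.81%, 6.34% and 5.38% in control libraries, while H2A and H4 overlapped. These shares sum to a fixed total, so they are not independent, and no test was made of the sums. By cluster, Hist2 summed to 9.93, 11.0 and 14.0 FPKM in siRNA libraries, against 7.65, 9.91 and 7.71 FPKM in control libraries, and Hist3 to 13.7, 17.2 and 11.1 FPKM in siRNA libraries, against 18.4, 18.8 and 17.7 FPKM in control libraries. Hist1 overlapped. The median gene of each class stood between 0.176 FPKM (H1) and 0.397 FPKM (H2B).

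**Figure D5:**
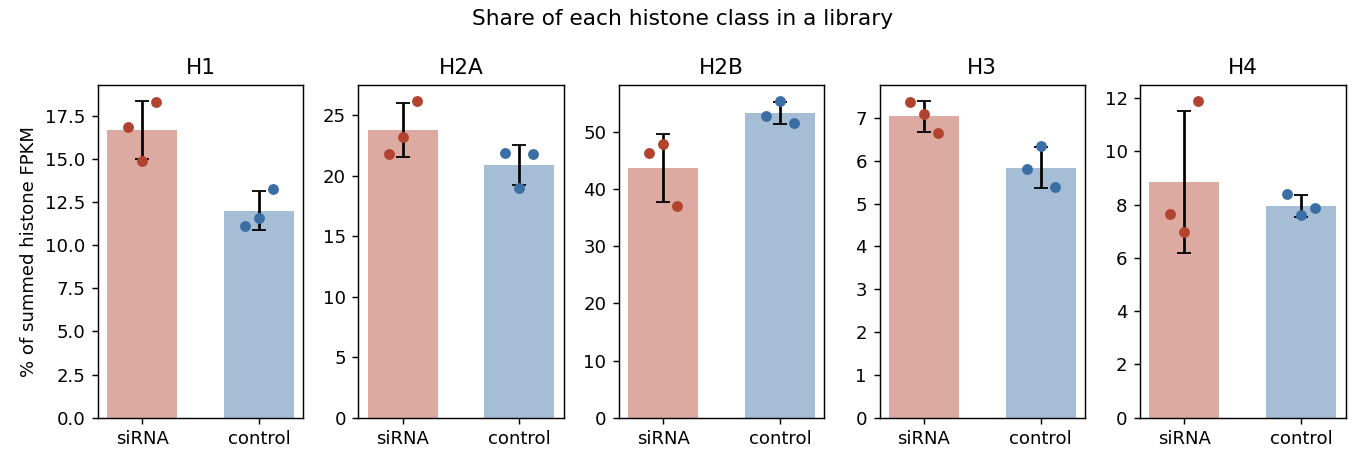
Percent of the summed FPKM of the 69 histone genes held by each class, siRNA left of control; bars are means, whiskers the SD and points the 3 libraries of a group. The H1 share is 14.9% to 18.3% in siRNA libraries and 11.1% to 13.3% in control libraries, and the H2B share is 37.0% to 47.9% in siRNA libraries and 51.7% to 55.5% in control libraries.

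Genes that work with these histones were compared from lists. Of 11 replication-independent histone variant genes, which encode histones that can be deposited outside replication, 0 were called and 5 were lower at an unadjusted p below 0.05, against 15.5% of all entries tested. The highest, H3f3b, averaged 104 ± 7.70 FPKM in siRNA libraries and 106 ± 10.0 FPKM in control libraries. H2afx, whose protein marks DNA breaks, averaged 45.4 ± 2.18 FPKM in siRNA libraries and 54.7 ± 5.34 FPKM in control libraries (SD, n = 3 each; adjusted p 0.258). Of 22 genes of histone transcription and 3 prime end processing, 21 were tested, 0 were called and 6 were lower at an unadjusted p below 0.05 (15.5% of all entries). Slbp, encoding the stem-loop binding protein, averaged 15.5 ± 1.36 FPKM in siRNA libraries and 17.0 ± 2.59 FPKM in control libraries (adjusted p 0.631). Npat, encoding an activator of histone transcription, averaged 7.15 ± 0.322 FPKM in siRNA libraries and 7.56 ± 0.361 FPKM in control libraries (adjusted p 0.698). The highest of this list, Snrpb, averaged 43.9 ± 3.82 FPKM in siRNA libraries and 55.0 ± 5.16 FPKM in control libraries (adjusted p 0.223).

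The 18 histone chaperones also gave 0 calls, with 6 lower at an unadjusted p below 0.05 (15.5% of all entries), and Npm1 averaged 144 ± 19.6 FPKM in siRNA libraries and 148 ± 14.6 FPKM in control libraries (adjusted p 0.888). Of 26 S phase genes, 0 were called, 14 were lower at an unadjusted p below 0.05 (15.5% of all entries), and 24 lay below the median fold change of all entries. Pcna, the replication clamp, averaged 95.6 ± 4.70 FPKM in siRNA libraries and 137 ± 15.6 FPKM in control libraries (SD, n = 3 each), with a log2 fold change of -0.51 and an adjusted p of 0.137. The list's median log2 fold change was -0.28, against -0.12 for all entries and 0.03 for the histone genes tested. No member of these 4 lists was called in either direction by limma.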

How the data were processed

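RNA was selected for poly(A), and strand-marked libraries with molecular identifiers in the adapters were sequenced, per the labels' protocols. The authors deposited 1 FPKM value per gene and library, made with HISAT, StringTie and edgeR on the mm9 build per the submitters' processing notes. Tool versions, annotation, strand setting and whether the identifiers served to remove duplicates were not given in the sources used here. All 6 columns of values were used, and 0 columns of per-sample values were left out.

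From the deposited FPKM, log2(FPKM + 1) was compared in limma 3.58.1 (R 4.3.3; two-sided, with the trend option of eBayes) over the 13702 entries averaging 1 FPKM or more, with Benjamini-Hochberg adjustment over all of them and a threshold of 0.05. The fold changes understate the change of weak genes. Only the rows of the histone genes and context lists are printed. With 3 libraries per group, the smallest two-sided exact permutation p is 0.1. Depth is inferred from whole steps of FPKM in genes with 1 transcript. Of the low values, 40.9% to 45.4% fell within 0.05 of a whole step, where chance gives 10%, and a depth of a further whole multiple would fit as well, which would put each fragment at a smaller value.

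Genes were matched by symbol to GENCODE M21 and RefSeq (both GRCm38), for names, transcript ends and sequences only, since the files use mm9. Python 3.11.15, pandas 2.3.3 and matplotlib 3.10.9 were used. Named are the histone genes of at least 1 FPKM, the highest of each class and cluster, the testis and H1 genes, those just above and below the filter, and for each context list its called members or its highest, with Slbp, Npat and H2afx. The histone genes, lists and tests were chosen with earlier results of these data known. The fitting steps were tested on simulated data. Alternatives changed the pseudocount, filter, scaling, moderation, block and libraries. Added after seeing the data were the other scalings of the counts of non-overlapping genes and of the summed weak histone genes, and those sums without siRNA library 3 or without the pseudogene entries.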

Additional observations from a re-analysis of the deposited data

How the results depend on the processing

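No histone gene was called under any of the 15 alternatives, and the lowest adjusted p of a histone gene among them was 0.115 (Hist3h2ba, without siRNA library 2). The adjusted p with a library left out ran from 0.132 to 0.415 for Hist1h1c, from 0.115 to 0.434 for Hist3h2ba and from 0.171 to 0.484 for Hist2h2aa1. The table-wide count of genes called higher, 16, was 7 with no filter, 9 with median-of-ratios scaling, 4 with quantile normalization and 8 with robust moderation, and ran from 2 to 15 with 1 library left out. The count called lower, 19, was 8 with a mean of at least 5 FPKM and 12 with quantile normalization, and ran from 6 to 23 with 1 library left out. Calls that were higher made up 45.7% of calls, 24.1% with no filter, 25% with quantile normalization, 30.8% with robust moderation and 63.6% with a mean of at least 5 FPKM, and from 25% to 55.6% with 1 library left out. The median of the histone genes minus that of all genes, 0.15, ran from 0.064 to 0.24 with 1 library left out. The labels do not say that the replicate numbers pair the libraries. Same-numbered libraries had deviations from their group means correlated at 0.046, 0.015 and 0.13, which cannot settle whether they were paired. With the replicate block, 23 genes were called higher and 23 lower, none of them histone genes, the median difference stayed 0.15 and the lowest histone adjusted p was 0.140.

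Values near 0 turned sign. Hist1h2bc, -0.09, was 0.031 with median-of-ratios scaling, 0.048 with quantile normalization and 0.11 without the ribosomal RNA entries, and ran from -0.18 to 0.069 with 1 library left out. Over the same omissions Hist2h2be ran from -0.10 to 0.13 and Hist3h2a from -0.056 to 0.051. The cause was not tested. The median of all genes moved from -0.12 to -0.01 with median-of-ratios scaling and 0.06 without the ribosomal RNA entries. Without Hist1h2aj and Hist1h2al the ratio of the summed weak histone genes was 1.40, as with them. The median weak histone gene rests on about 3.32 fragments per library.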
